A study of Homo sapiens with 4 samples.

Results

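The growth and differentiation factor gene GDF15, the activin and inhibin beta subunit genes INHBA, INHBB and INHBE, the activin-binding protein genes FST and FSTL3, and the transforming growth factor genes TGFB1 and TGFB2 were described in endometrial cancer cells given a mimic of a tRNA-derived small RNA. The genes were taken by symbol from the deposited tables, and all 8 were found among 22494 features. Poly(A) RNA was sequenced from HEC-1-A and RL-95-2, both long-established lines from human endometrial tumours, after transfection with tRF-20-S998LO9D mimics or with their negative control. The groups were RL-95-2 with the mimic, RL-95-2 with the control, HEC-1-A with the mimic and HEC-1-A with the control, with 1 library each. The comparison asks which of these genes differ in level in the presence of this fragment. Neither its dose nor the time after transfection is given in the sources used here. The genes were chosen by their levels in each line and their ratios of mimic over control, so those values are a description, with no test.

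Members of the transforming growth factor beta family are secreted as dimers that are cut free from a larger precursor by convertases such as furin. Activins are dimers of beta subunits, inhibins pair a beta subunit with the alpha subunit encoded by INHA, and both kinds of dimer compete for activin receptors, which signal through SMAD2 and SMAD3. Follistatin and follistatin-like 3 bind activins and keep them from their receptors. In the endometrium, activins and transforming growth factors are known for roles in decidualization and repair. GDF15 acts through the GFRAL receptor in the hindbrain and is, like INHBE, known as a target of the integrated stress response.

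Total counts ranged from 33575882 to 46220053 per library, and between 17016 and 17640 features had at least 1 count. Levels of 1 gene across libraries are given in CPM, counts scaled to a common library size with TMM factors. Levels of different genes are compared in the deposited FPKM, which are divided by gene length, and no TMM factors were applied to them here. The length implied by counts and FPKM varied between libraries, by 1.39-fold for FST and 1.17-fold for INHBA. Sums and shares of FPKM carry this variation when set side by side across libraries. A gene is called measured in a line where its mimic and control libraries averaged 1 CPM or more, and apart where they differed 2-fold or more. With a single library on each side, no difference within a line can be checked against replicates, and the exact 95% intervals, made from the 2 counts, cover counting error only. The epithelial markers EPCAM, KRT8, KRT18, KRT19 and CDH1 were at 1 CPM or more in all 4 libraries, and of the Müllerian markers so were PAX8 and HOXA10, while SOX17 and PGR had 0 counts. The summed epithelial markers stood at 905 CPM with the mimic and 1053 CPM with the control in HEC-1-A, and at 3369 CPM with the mimic and 1871 CPM with the control in RL-95-2. Of 5 fibroblast markers COL1A1 alone reached 1 CPM in any library. CD68 alone did so among 5 blood markers, and CDH5 alone, in RL-95-2, among 4 endothelial markers. The summed fibroblast markers were at 56.8 CPM with the mimic and 78.2 CPM with the control in RL-95-2, and at most 6.43 CPM in HEC-1-A. Summed blood markers were between 0.845 and 7.56 CPM in all libraries. Summed endothelial markers were at 24.7 CPM with the mimic and 14.2 CPM with the control in RL-95-2, and at most 0.29 CPM in HEC-1-A. The part of these markers in the results was not tested. In bulk RNA, fewer cells that express a gene and less of its RNA per cell cannot be told apart.

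The promoters of GDF15, INHBA and FSTL3 are shown because these genes share a lower level in the RL-95-2 mimic library and hold the same short motif. Each is the 250 bases before the gene start in RefSeq (GRCh38.p14). By symbol, 7 of the 8 genes matched such a window, all but INHBE. The capitals mark TATAAA on either strand, which was picked for display after all 8 motifs had been counted. Since the windows shown were picked by level and motif, a link between level and motif was not tested. TGFB2, under 1 CPM in all 4 libraries, also holds TATAAA and is not shown. The GENCODE spans of GDF15, INHBA and FSTL3 reach farther upstream than these RefSeq starts, and in FSTL3 the capitals lie across the GENCODE start. The windows are chr19:18385908-18386157 on the plus strand for GDF15, chr7:41703091-41703340 on the minus strand for INHBA and chr19:676142-676391 on the plus strand for FSTL3.
GDF15: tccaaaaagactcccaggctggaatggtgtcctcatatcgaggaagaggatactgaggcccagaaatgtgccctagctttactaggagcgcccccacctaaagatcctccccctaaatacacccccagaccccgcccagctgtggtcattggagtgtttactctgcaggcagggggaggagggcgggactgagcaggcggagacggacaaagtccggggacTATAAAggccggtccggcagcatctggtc
INHBA: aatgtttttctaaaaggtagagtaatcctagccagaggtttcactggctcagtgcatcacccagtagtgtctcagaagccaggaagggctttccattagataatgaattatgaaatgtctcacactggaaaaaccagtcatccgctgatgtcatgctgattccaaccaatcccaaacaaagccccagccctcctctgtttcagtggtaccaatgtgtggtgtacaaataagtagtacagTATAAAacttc
FSTL3: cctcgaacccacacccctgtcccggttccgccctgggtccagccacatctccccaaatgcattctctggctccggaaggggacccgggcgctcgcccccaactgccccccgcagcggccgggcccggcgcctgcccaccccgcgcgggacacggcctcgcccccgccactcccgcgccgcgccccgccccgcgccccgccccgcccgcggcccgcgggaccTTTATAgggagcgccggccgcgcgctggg
TATAAA was found in 4 of the 7 windows, those of GDF15, INHBA, FSTL3 and TGFB2, and in 10.7% of 35116 RefSeq windows of the same length. It starts 29 bases before the gene start in GDF15, FSTL3 and TGFB2 and 11 bases before it in INHBA, and in FSTL3 it lies on the other strand. TGATGNAA, the letters of the C/EBP-ATF response element, was in 0 of the 7 windows and 3.14% of all windows. TGANTCA, the AP-1 motif, was in the FST window and 6.57% of all windows, and TGACGTCA, the cAMP response element, in 0 of the 7 and 1.65%. GGGCGG, the GC box, was in 5 of the 7 windows and 42.6% of all, CCAAT in 3 and 32%, CAGAC, part of the SMAD binding element, in 2 and 38.0%, and CACGTG, the E-box, in 1 and 6.34%. All 8 motifs were searched on both strands, and no TATAAA match overlapped a match of another motif. In TGFB2 a CAGAC match and the CACGTG match share their edge. A match is a description of the letters, not of a binding site.

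GDF15, a stress-induced cytokine gene, was among the most abundant mRNAs in 3 of the 4 libraries and was far lower in the fourth, RL-95-2 with the mimic. It had 5641 counts in the RL-95-2 mimic library and 122929 counts in the RL-95-2 control library, which is 114 CPM with the mimic and 3150 CPM with the control. In HEC-1-A it had 72737 counts with the mimic and 37430 counts with the control, which is 1625 CPM with the mimic and 1130 CPM with the control. The RL-95-2 mimic library was therefore lowest and the RL-95-2 control library highest, with both HEC-1-A libraries between them. GDF15 was 27.5-fold lower with the mimic in RL-95-2 (log2 ratio -4.78, 95% interval of the counts -4.82 to -4.74). Within HEC-1-A it was 1.44-fold higher with the mimic (log2 ratio 0.52, 0.51 to 0.54). By FPKM, GDF15 held place 592 among all features in the RL-95-2 mimic library and place 9 in the RL-95-2 control library, and places 19 with the mimic and 32 with the control in HEC-1-A. Its transcripts took 0.0122% of all counts in the RL-95-2 mimic library and 0.307% in the RL-95-2 control library. GDF15 lies on chromosome 19 at 18374731 to 18389176 on the plus strand (GRCh38, GENCODE release 29), and no exon of another annotated gene overlaps its exons.

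**Figure D1:**
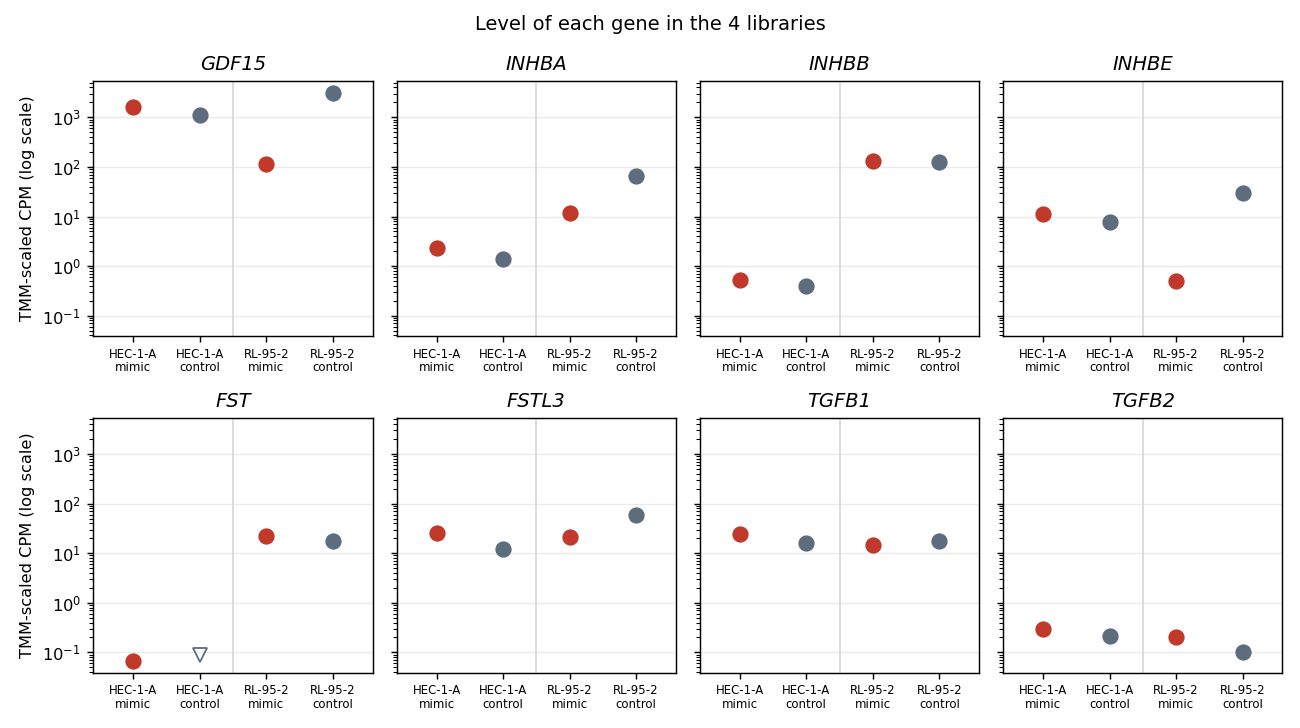
TMM-scaled CPM of the 8 genes on a log scale, 1 point per library, mimic in red and control in grey. The open triangle marks FST in the HEC-1-A control, which had 0 counts and is drawn at the limit of 3 counts. GDF15 stands at 114 CPM in the RL-95-2 mimic library and at 1130 CPM or more in the other 3 libraries.

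INHBE, which encodes the beta E subunit known mainly from liver, had the lowest ratio of the 8 genes in RL-95-2. It had 25 counts in the RL-95-2 mimic library and 1165 counts in the RL-95-2 control library, or 0.507 CPM with the mimic and 29.9 CPM with the control. In HEC-1-A it had 506 counts with the mimic and 254 counts with the control, or 11.3 CPM with the mimic and 7.67 CPM with the control. The library order was that of GDF15, from the RL-95-2 mimic as lowest to the RL-95-2 control as highest. INHBE was 53.8-fold lower with the mimic in RL-95-2 (log2 ratio -5.75, interval -6.51 to -5.31) and 1.47-fold higher with the mimic in HEC-1-A (log2 ratio 0.56, 0.34 to 0.78). On log2(FPKM + 1) the RL-95-2 log2 ratio was -3.27. INHBE lies on chromosome 12 at 57452323 to 57459280 on the plus strand.

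INHBA, which encodes the beta A subunit of activin A, was mainly a transcript of RL-95-2 and was lower there with the mimic. It had 580 counts in the RL-95-2 mimic library and 2531 in the RL-95-2 control library, which is 11.8 CPM with the mimic and 64.9 CPM with the control. In HEC-1-A it had 105 counts with the mimic and 45 with the control, or 2.35 CPM with the mimic and 1.36 CPM with the control. Both RL-95-2 libraries thus stood above both HEC-1-A libraries. INHBA was 5.49-fold lower with the mimic in RL-95-2 (log2 ratio -2.46, interval -2.60 to -2.33). In HEC-1-A it was 1.70-fold higher with the mimic (log2 ratio 0.77, 0.27 to 1.33), which on log2(FPKM + 1) was 0.18. INHBA, whose printed window holds TATAAA closest to the gene start, lies on chromosome 7 at 41667168 to 41705834 on the minus strand. The antisense gene INHBA-AS1 spans part of it but shares 0 exon bases with it.

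INHBB, which encodes the beta B subunit of activin B, was abundant in RL-95-2 and near the detection limit in HEC-1-A. It had 6604 counts in the RL-95-2 mimic library and 4891 in the RL-95-2 control library, or 134 CPM with the mimic and 125 CPM with the control. In HEC-1-A it had 24 counts with the mimic and 13 with the control, under 1 CPM in both. The RL-95-2 pair differed little, at a log2 ratio of 0.10 (interval 0.04 to 0.15), and the interval in HEC-1-A, -0.58 to 1.55, held 0. With scaling by library total the RL-95-2 log2 ratio was 0.22.

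Per length, the makeup of the beta subunit transcripts differed between lines and, in RL-95-2, between transfections. INHBC, another beta subunit gene, and INHA are given beside the 3 beta subunit genes for their place in the family. INHBB made up 94.8% of the summed FPKM of INHBA, INHBB, INHBC and INHBE in the RL-95-2 mimic library and 62.6% in the RL-95-2 control library. INHBE made up 0.504% of that sum with the mimic and 19.8% with the control, and INHBA 4.64% with the mimic and 17.5% with the control. The sum itself was 41.9 FPKM with the mimic and 53.9 FPKM with the control. In HEC-1-A INHBE led, at 83.7% of the sum with the mimic and 80.5% with the control, but of a sum of only 4.94 FPKM with the mimic and 3.45 FPKM with the control. INHA stood at 1.83 FPKM with the mimic and 2.16 FPKM with the control in RL-95-2, and at 15 counts with the mimic and 3 counts with the control in HEC-1-A.

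**Figure D2:**
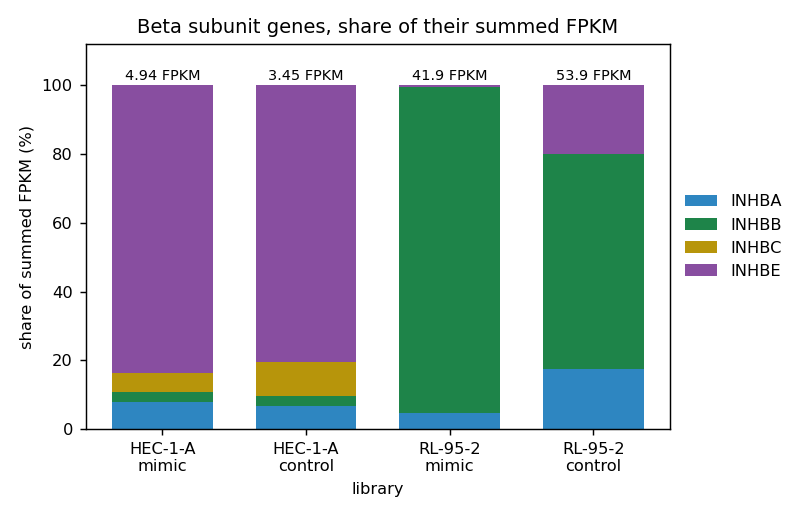
Share of each beta subunit gene in the summed FPKM of INHBA, INHBB, INHBC and INHBE, in percent, for each of the 4 libraries, with the sum above each bar. INHBB holds 94.8% of the bar of the RL-95-2 mimic and 62.6% of that of the RL-95-2 control, and INHBE over 80% of both HEC-1-A bars.

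The activin-binding protein genes differed from each other in their ratios. FSTL3, which encodes follistatin-like 3, had 1034 counts in the RL-95-2 mimic library and 2276 in the RL-95-2 control library, or 21.0 CPM with the mimic and 58.3 CPM with the control. In HEC-1-A it had 1130 counts with the mimic and 408 with the control, or 25.2 CPM with the mimic and 12.3 CPM with the control. Its mimic libraries lay close together, and the control libraries of the lines stood on either side of them. FSTL3 was 2.78-fold lower with the mimic in RL-95-2 (log2 ratio -1.47, interval -1.58 to -1.37) and 2.05-fold higher with the mimic in HEC-1-A (log2 ratio 1.03, 0.87 to 1.20). The HEC-1-A ratio lies at the 2-fold line, and on log2(FPKM + 1) it was 0.85. FSTL3, whose printed window holds TATAAA on the other strand, lies on chromosome 19 at 676365 to 683399 on the plus strand.

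FST, which encodes follistatin, was a transcript of RL-95-2. It had 1111 counts in the RL-95-2 mimic library and 692 in the RL-95-2 control library, or 22.5 CPM with the mimic and 17.7 CPM with the control (log2 ratio 0.35, interval 0.21 to 0.48). In HEC-1-A there were 3 counts with the mimic and 0 with the control. The 0 allows a level of up to 0.0893 CPM before TMM scaling, so no ratio is given. FST made up 51.4% of the summed FPKM of FST and FSTL3 in the RL-95-2 mimic library and 23.9% in the RL-95-2 control library. Set against the activin A and B subunits, FST plus FSTL3 came to 17.2 FPKM of a total of 58.9 FPKM with INHBA and INHBB in the RL-95-2 mimic library, and to 26.2 of 69.4 FPKM in the RL-95-2 control library. In HEC-1-A they came to 8.78 of 9.32 FPKM with the mimic and to 4.41 of 4.75 FPKM with the control.

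TGFB1, which encodes a widely expressed transforming growth factor beta, had the narrowest range of CPM among the genes measured in both lines. It had 734 counts in the RL-95-2 mimic library and 699 in the RL-95-2 control library, or 14.9 CPM with the mimic and 17.9 CPM with the control (log2 ratio -0.27, interval -0.42 to -0.12). In HEC-1-A it had 1093 counts with the mimic and 530 with the control, or 24.4 CPM with the mimic and 16 CPM with the control (log2 ratio 0.61, 0.46 to 0.76). The HEC-1-A mimic library was the highest, and the other 3 libraries lay between 14.9 and 17.9 CPM. On log2(FPKM + 1) the RL-95-2 ratio was -0.08. Exons of TGFB1 share 215 bases with exons of HNRNPUL1 on the other strand, and no source used here gives the strand setting of the counting, so reads there cannot be told apart. TGFB2 was under 1 CPM in all 4 libraries. It had 10 counts with the mimic and 4 with the control in RL-95-2 and 13 with the mimic and 7 with the control in HEC-1-A, and both intervals held 0.

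In RL-95-2, 7 of the 8 genes were measured. With the mimic, GDF15, INHBA, INHBE and FSTL3 were lower by 2-fold or more and 0 were higher by as much. Among 13151 measured features, 6.52% were that much lower and 4.71% that much higher. The median log2 ratio was -1.47 over the 7 genes and 0.00 over all measured features. In HEC-1-A, 5 of the 8 genes were measured, and all 5 had ratios above 0. FSTL3 alone was higher by 2-fold or more and 0 were lower by as much, beside 0.871% of 12981 measured features that were higher and 0.239% that were lower. The median over the 5 genes was 0.61, and 0.02 over all measured features. Since the genes were chosen with these ratios known, the counts are not evidence about the family.

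**Figure D3:**
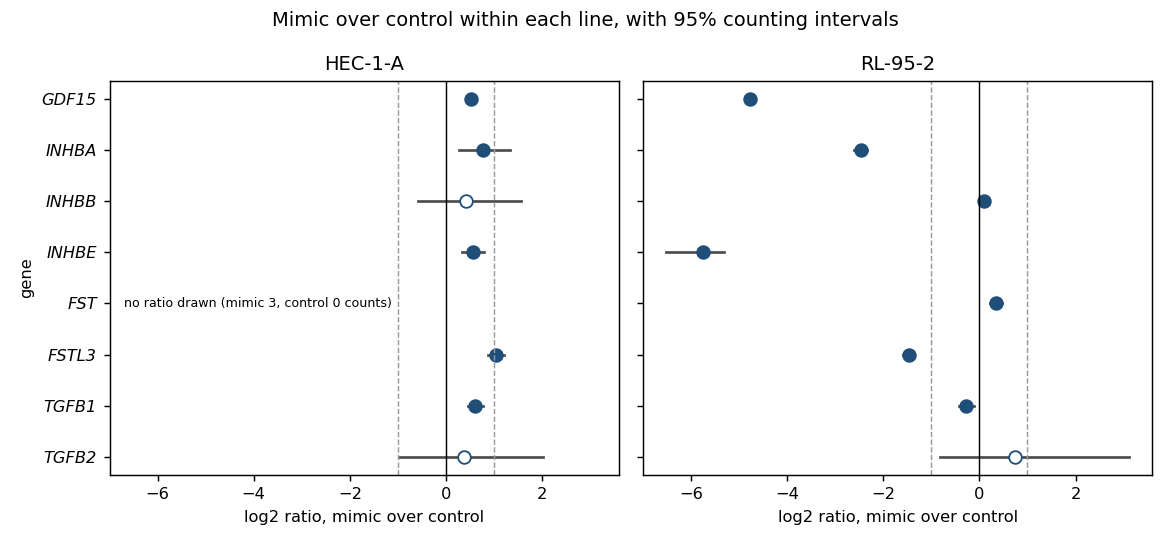
Log2 ratio of mimic over control for the 8 genes within HEC-1-A and within RL-95-2, with exact 95% counting intervals. Open circles mark genes under a mean of 1 CPM in that line, dashed lines mark 2-fold, and FST in HEC-1-A has no ratio. GDF15, INHBA, INHBE and FSTL3 lie left of the lower line in RL-95-2 and right of 0 in HEC-1-A.

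By FPKM, the order in the RL-95-2 control library was GDF15 (2268), INHBB (33.8), FSTL3 (20), INHBE (10.7), INHBA (9.45), FST (6.25), TGFB1 (5.66) and TGFB2 (0.0172). In the RL-95-2 mimic library it was GDF15 (90.6), INHBB (39.7), FST (8.87), FSTL3 (8.37), TGFB1 (5.29), INHBA (1.94), INHBE (0.211) and TGFB2 (0.0373). INHBE thus held place 7 of the 8 with the mimic and place 4 with the control, and FST place 3 with the mimic and place 6 with the control. In HEC-1-A the order after GDF15 was FSTL3 (8.77 FPKM), TGFB1 (7.77), INHBE (4.14) and INHBA (0.398) with the mimic. With the control it was TGFB1 (5.39 FPKM), FSTL3 (4.41), INHBE (2.78) and INHBA (0.232). With 1 library per group, no spread is available to say which neighbours differ. GDF15 made up 58.5% of the summed FPKM of the 8 genes in the RL-95-2 mimic library and 96.4% in the RL-95-2 control library. In HEC-1-A that share was 98.2% with the mimic and 98.5% with the control.

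The genes most like GDF15 over the 4 libraries were ATF3, FOSB and INHBE, by the Euclidean distance between log2 CPM profiles centred on their own means, among 11439 features at a mean of at least 5 CPM. ATF3, a stress-induced transcription factor gene, was at a distance of 0.39, FOSB, an AP-1 subunit gene, at 0.58, and INHBE at 0.69. For INHBE the nearest were GDF15 (0.69), ATF3 (0.69) and FOSB (0.88). ATF3 had 4.12 CPM with the mimic and 129 CPM with the control in RL-95-2, and 50.1 CPM with the mimic and 32.8 CPM with the control in HEC-1-A. FOSB had 0.669 CPM with the mimic and 19.6 CPM with the control in RL-95-2, and 15.8 CPM with the mimic and 9.99 CPM with the control in HEC-1-A. These distances rest on 4 libraries and mostly on the RL-95-2 pair.

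**Figure D4:**
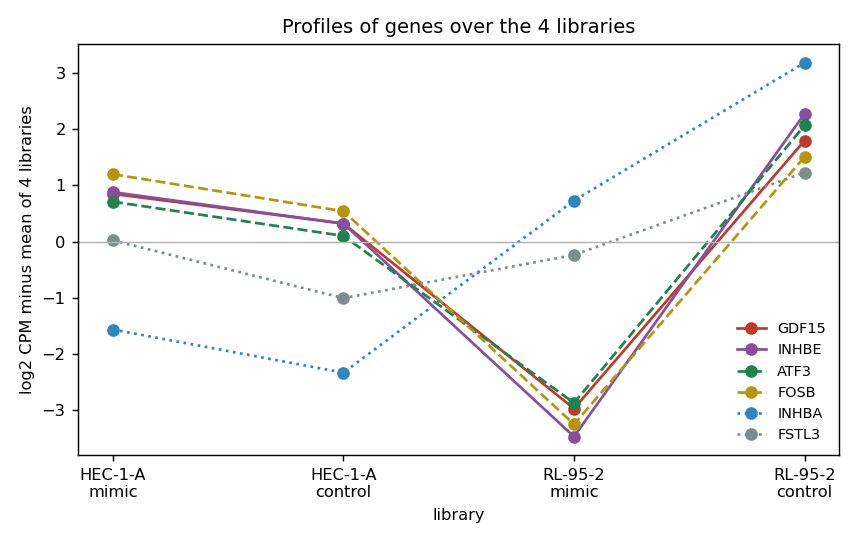
Log2 CPM minus the gene's mean over the 4 libraries for GDF15, INHBE, the nearest genes ATF3 and FOSB, and INHBA and FSTL3, 1 point per library. GDF15, INHBE, ATF3 and FOSB have their lowest point, -2.88 or below, in the RL-95-2 mimic library, while INHBA has its lowest, -2.34, in the HEC-1-A control.

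Around these genes, 97 other genes of the pathway were counted in 8 lists, and some belong to more than 1 list. With the stress regulators left aside, 61 of 88 were measured in RL-95-2, where the mimic library was higher by 2-fold or more for 4 and lower for 5, beside 4.71% of all measured features that were higher and 6.52% that were lower. Their median log2 ratio was -0.18, against 0.00 for all measured features. In HEC-1-A 52 of 88 were measured, with 1 higher and 1 lower by 2-fold or more. This stands beside 0.871% of all measured features higher and 0.239% lower. The median was 0.03, against 0.02 for all measured features.

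Among 9 regulators known to act on GDF15 or INHBE or in the same stress responses, the RL-95-2 mimic library was lower by 2-fold or more for 7 and higher for 0, beside 6.52% of all measured features that were lower and 4.71% that were higher. Their median log2 ratio was -1.66. DDIT3, which encodes CHOP, had 15.8 CPM with the mimic and 136 CPM with the control (log2 ratio -3.10), and overlaps exons of MARS and MBD6 on the other strand. ATF3 had a log2 ratio of -4.95. EGR1, ERN1, XBP1, CEBPG and CEBPB had log2 ratios between -2.02 and -1.01. ATF4, the central factor of the integrated stress response, had 254 CPM with the mimic and 440 CPM with the control (log2 ratio -0.79). In HEC-1-A the median of the 9 was 0.09 and 0 were 2-fold apart, with ATF3 highest at 0.61. Of all measured features in HEC-1-A, 0.871% were higher by 2-fold or more and 0.239% lower. Lower levels of stress response genes in RL-95-2 were known when the list was made, so its count is no separate support.

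Among receptors, 11 of 17 genes were measured in RL-95-2, and BAMBI alone was apart, beside 6.52% of all measured features lower and 4.71% higher. BAMBI, a pseudoreceptor that damps signalling, had 31.0 CPM with the mimic and 85.9 CPM with the control (log2 ratio -1.47, interval -1.56 to -1.38). ACVR2B, a type II activin receptor gene, had 11.8 CPM with the mimic and 23.6 CPM with the control, just under the 2-fold line (log2 ratio -1.0). TGFBR2, the type II receptor for transforming growth factor beta, had 77.0 CPM with the mimic and 43.7 CPM with the control (log2 ratio 0.82). RET, the co-receptor of GFRAL, had 1.76 CPM with the mimic and 1.20 CPM with the control (log2 ratio 0.53). GFRAL itself had 0 counts in every library of both lines. In HEC-1-A 12 of 17 were measured and 0 were 2-fold apart, from -0.32 for ENG to 0.65 for BAMBI. This is near the shares of all measured features, 0.871% higher and 0.239% lower.

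The SMAD genes and their regulators were all measured in both lines. In RL-95-2, 11 of 14 had ratios below 0, with a median of -0.44, against 0.00 for all measured features. The share of all features with ratios below 0 was not counted. SMAD7, an inhibitory SMAD gene, had 6.41 CPM with the mimic and 19.6 CPM with the control (log2 ratio -1.61), and TGIF1, a corepressor gene, had 119 CPM with the mimic and 341 CPM with the control (log2 ratio -1.52). SMAD6, another inhibitory SMAD gene, had 55.5 CPM with the mimic and 23.6 CPM with the control (log2 ratio 1.23), and SKIL, a corepressor gene, a log2 ratio of 0.03. SMAD2, SMAD3 and SMAD4, which carry the activin signal to the nucleus, were at -0.56 for SMAD2, -0.99 for SMAD3 and -0.49 for SMAD4 on that scale. The HEC-1-A median was -0.09, and 0 of 14 were 2-fold apart, from -0.57 for SKIL to 0.46 for SMAD7. That count is near the shares of all measured features in HEC-1-A, 0.871% higher and 0.239% lower.

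Of 10 target genes of SMAD2 and SMAD3, 3 were lower by 2-fold or more with the mimic in RL-95-2, SMAD7 and TGFBI among them, and 0 were higher, beside the same 6.52% and 4.71% of all measured features. The median of the 10 was -0.50. TGFBI, which encodes a secreted matrix protein, had 3.43 CPM with the mimic and 7.20 CPM with the control (log2 ratio -1.06). CDKN2B, a cell cycle inhibitor gene, and TAGLN, a smooth muscle actin-binding protein gene, were highest at 0.22 and 0.14. In HEC-1-A the median was 0.34, and COL1A1 was at least 2-fold higher (6.39 CPM with the mimic and 2.96 CPM with the control). Of all measured features in HEC-1-A, 0.871% were that much higher and 0.239% lower. SMAD1 and SMAD5 are the mediators of bone morphogenetic proteins. Of 7 of their target genes, ID3 and SMAD6 were at least 2-fold higher and BAMBI lower in RL-95-2. This stands beside 4.71% of all measured features that were higher and 6.52% that were lower. SMAD6 and BAMBI are also in the lists given above. ID3, an inhibitor of differentiation gene, had 472 CPM with the mimic and 226 CPM with the control (log2 ratio 1.06), and ID4 had a log2 ratio of -0.43 in RL-95-2 and 0.47 in HEC-1-A.

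Of 25 other ligand genes, 13 were measured in RL-95-2, with 2 higher by 2-fold or more and 0 lower. Of all measured features in RL-95-2, 4.71% were that much higher and 6.52% lower. AMH, which encodes anti-Müllerian hormone, had 13.2 CPM with the mimic and 5.43 CPM with the control (log2 ratio 1.27), and GDF6 had 4.87 CPM with the mimic and 1.87 CPM with the control (log2 ratio 1.36). BMP2 had a log2 ratio of -0.85 and GDF1 of -0.83. GDF1 was at least 2-fold lower in HEC-1-A (2.01 CPM with the mimic and 4.41 CPM with the control), but it shares exons with CERS1 on the same strand, so its reads are uncertain. GDF11 was highest there at 0.37. Of all measured features in HEC-1-A, 0.871% were higher by 2-fold or more and 0.239% lower. Of 16 binding and latency genes, 7 were measured in RL-95-2 and 5 in HEC-1-A, and 0 were 2-fold apart. With so few genes, 0 is near these shares of all measured features. LTBP1, a latent transforming growth factor binding protein gene, had a log2 ratio of -0.72 in RL-95-2 and LTBP4 of -0.36, while NOG had 0.21 and TWSG1 0.19. LTBP2 was highest in HEC-1-A at 0.32 and FSTL1 lowest at -0.09. Of 4 convertase genes that cut these precursors, 0 were 2-fold apart in either line, again near these shares. FURIN had log2 ratios of -0.05 in RL-95-2 and 0.01 in HEC-1-A, PCSK6 -0.06 in RL-95-2, PCSK5 0.19 in RL-95-2 and 0.29 in HEC-1-A, and PCSK7, whose exons overlap those of TAGLN on the other strand, 0.58 in RL-95-2.

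**Figure D5:**
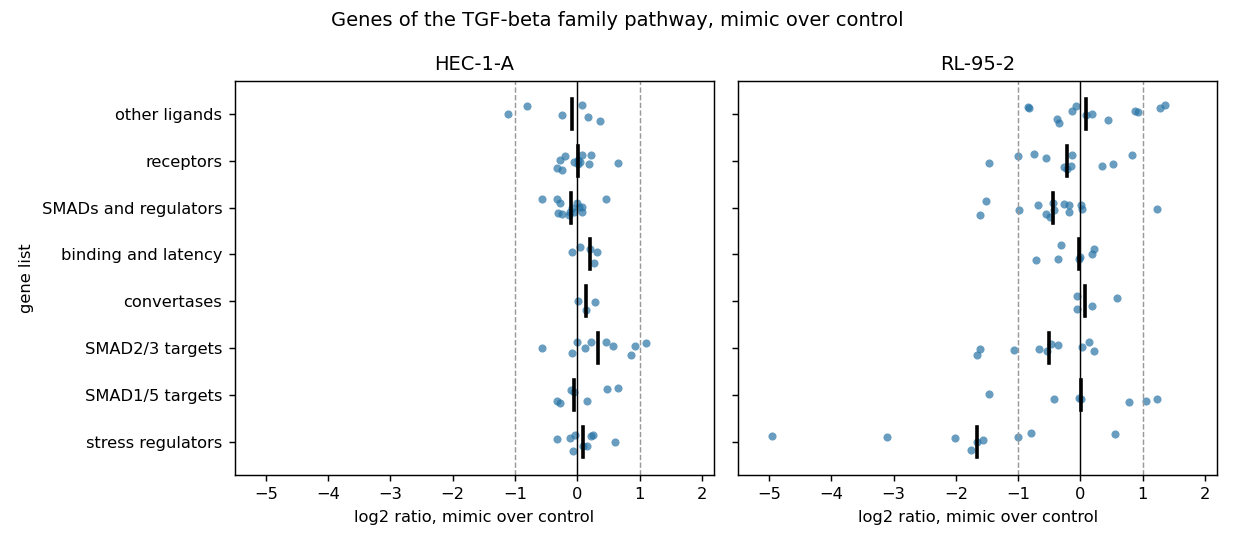
Log2 ratio of mimic over control within HEC-1-A and within RL-95-2 for the measured genes of 8 pathway lists, 1 point per gene, with the list median as a black bar and dashed lines at 2-fold. The stress regulators have a median of -1.66 in RL-95-2 and 0.09 in HEC-1-A.

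Over both lines, with the line as a block, edgeR's quasi-likelihood test called 0 of 82 pathway genes tested, and 0 of them had an unadjusted p under 0.05. Over all 15957 features it called 0 higher and 0 lower (0% in each direction), with 167 at an unadjusted p under 0.05. DESeq2 called 2 features, PPAN-P2RY11 and SCHIP1-1, named here after their values were seen, and limma-voom called 0. PPAN-P2RY11 had 0 counts in both mimic libraries, and 217 in the HEC-1-A control and 398 in the RL-95-2 control. SCHIP1-1 had 0 counts in both control libraries, and 154 in the HEC-1-A mimic and 239 in the RL-95-2 mimic. The origin of these all-or-none counts was not tested. With 1 residual degree of freedom and lines that differ in their ratios, 0 calls do not show that no gene differed.

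Between the lines, with 2 libraries each, edgeR called 29 of 82 pathway genes higher and 16 lower in RL-95-2 than in HEC-1-A at an adjusted p under 0.05, beside 18.3% of all 15957 features higher and 16.7% lower. LTBP1 had 1093 counts in the mimic and 1426 in the control library of RL-95-2 and 0 in both HEC-1-A libraries, and was at least 372-fold higher in RL-95-2 against a floor of 3 counts per library (edgeR adjusted p = 0.00016). GDF6, with the libraries in the same order, had 240 and 73 counts in RL-95-2 and 0 in both HEC-1-A libraries, at least 42-fold higher (edgeR adjusted p = 0.0023). LRRC32 and NRROS, which encode proteins that tether latent transforming growth factor beta to cells, were lower in RL-95-2. LRRC32 had 0 and 2 counts in RL-95-2 and 35 and 26 in HEC-1-A (edgeR log2 fold change -4.97, SE 1.19, adjusted p = 0.020), and NRROS had 0 and 3 counts in RL-95-2 and 29 and 32 in HEC-1-A (edgeR log2 fold change -4.55, SE 1.14, adjusted p = 0.024). Both were under 1 CPM in all 4 libraries, and exons of NRROS share bases with PIGX. The libraries of a line differ in transfection, which is a term of the fit. The spread behind this test therefore holds how the response to the mimic differs between the lines. With the line as the only term, 47 pathway genes were called. Fits with a library left out also had the line as the only term. They leave 1 library in a line, so no gene is named from them. How many calls they made is given only with the dependence on processing.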

How the data were processed

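Poly(A) RNA of 4 libraries was sequenced, 1 per cell line and transfection, grouped by the labels, which do not say whether libraries came from separate cultures. For each gene the authors deposited a raw count and an FPKM value. CASAVA, HISAT2 and GRCh38 (hg38) are listed per the submitters' processing notes. No counter, annotation, strand setting or FPKM tool is given in the sources used here.

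From the counts, log2 ratios of TMM-scaled CPM (prior count of 2, TMM factors from features passing filterByExpr) were computed within each line, with exact 95% Clopper-Pearson intervals. Totals of 33575882 to 46220053 counts limit precision to these intervals. For lower bounds of folds, 0 counts were replaced by 3 counts in each library. The test over both lines was edgeR 4.0.16 in R 4.3.3 with line and transfection as terms and Benjamini-Hochberg adjustment at 0.05. Pairing came from the labels, since each line has a mimic and a control library. The fit was run on simulated counts in which each changed gene moved the same way in both lines. Changes that differ between the lines were not simulated. Alternatives were DESeq2 1.42.0, limma-voom (limma 3.58.1), RLE factors, library totals, other prior counts and filters, and FPKM on a log2 scale. The p-values speak only of the spread among these samples, which may be technical.

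Members and lists were chosen with earlier results of these data known. Named are all 8 members, the 2 highest and 2 lowest ratios of each list in RL-95-2 and the highest and lowest in HEC-1-A, the 2 largest calls in each direction between lines, and the 3 genes nearest to GDF15 and to INHBE. INHA, INHBC, EGR1, ERN1, XBP1, CEBPG, CEBPB, SMAD2, SMAD3, SMAD4 and TGFBI were named outside this rule, and some genes that meet it are not reported here. 27 features had a symbol turned into a date and were not named.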

Additional observations from a re-analysis of the deposited data

Results flagged for a closer look

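Ratios of mimic over control lay on opposite sides of 0 in the lines, with both counting intervals clear of 0, for 5 of the 8 genes. With 1 pair of libraries per line, these differences were not tested. The share of all features whose ratios do the same was not counted. Since the genes were chosen with these ratios known, the count is not evidence about the family. The RL-95-2 log2 ratio minus the HEC-1-A log2 ratio was -6.31 for INHBE, -5.31 for GDF15, -3.23 for INHBA, -2.51 for FSTL3 and -0.87 for TGFB1. Among the other named genes reported here it was -5.56 for ATF3, -5.44 for FOSB, -3.36 for DDIT3, -2.12 for BAMBI, -2.06 for SMAD7, -1.98 for TGFBI, -1.91 for ERN1, -1.87 for XBP1, -1.57 for COL1A1, -1.11 for CEBPB, -0.89 for ID4, and -0.63 for both LTBP2 and LTBP4. For SMAD6 it was 1.55, where the ratio was above 0 in RL-95-2 and below 0 in HEC-1-A. The place of TGFB1 depends on the scaling. Its RL-95-2 log2 ratio of -0.27 was -0.14 with library totals and -0.08 on log2(FPKM + 1), where no interval was made.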

How the results depend on the processing

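GDF15, INHBA, INHBE and FSTL3 were at least 2-fold lower in RL-95-2 under RLE factors, library totals, prior counts of 0.5 and 5, log2(FPKM + 1), log2(FPKM + 0.1), no minimum and a minimum of 5 CPM. No ratio of a measured gene changed its direction under the 6 scalings, prior counts and FPKM scales. Library totals moved the median of all RL-95-2 features to 0.13, log2(FPKM + 1) to 0.11 and log2(FPKM + 0.1) to 0.14. Genes at least 2-fold higher in RL-95-2 made up 41.9% of the genes apart, against 55.8% with library totals and 57.2% on log2(FPKM + 0.1). In HEC-1-A that share was 78.5%, and 50% on log2(FPKM + 1). The number of the 8 genes at least 2-fold higher in HEC-1-A was 0 in place of 1 on both FPKM scales, where FSTL3 fell short, and 2 with no minimum CPM, which adds FST with 3 and 0 counts. For pathway genes in HEC-1-A, those higher were 0 on log2(FPKM + 1), 4 with no minimum and 0 at 5 CPM, and those lower 0, 5 and 0. In RL-95-2, 7 were higher with no minimum. Over both lines the mimic called 0 features under all edgeR settings and limma-voom, and 2 with DESeq2. With no replicate block for the line it called 0, with 5 at an unadjusted p under 0.05. Leaving out a library leaves the mimic fit no residual degrees of freedom, so it gives no test. Between lines, 3344 features and 28 pathway genes were called at 1 CPM in all 4 libraries, where fewer features were tested. Leaving out each library in turn gave 3249 to 10743 features and 31 to 72 pathway genes, and the cause was not tested. Each of those fits leaves 1 library in a line, so these numbers are not evidence about any gene. Low counts limit INHBB, FST and TGFB2 in HEC-1-A and TGFB2 in RL-95-2, where differences were not detectable at this depth.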
